A study of Mus musculus with 2 samples.

Results

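The genes of the constitutive proteasome were examined in GR1+ myeloid cells of mouse 4T1 breast tumors. Members were the genes whose symbol begins with Psma, Psmb, Psmc, Psmd or Psme and a number, leaving out the inducible catalytic subunits Psmb8, Psmb9 and Psmb10 and pseudogenes, with at least 10 unique molecular identifiers (UMIs, counts of single captured RNA molecules) in the retained cells. Of 32285 genes listed, 14000 reached 10 UMIs, 42 had such a symbol and 41 were members. Psmb11, the catalytic subunit of thymic epithelium, had 0 UMIs and was left out. The name does not hold for all 41 genes. Psmc3ip is a DNA recombination factor and no proteasome subunit, although its symbol begins with that of an ATPase gene. Psme2b is a near copy of Psme2 inside other transcripts of the same strand, and Psma8 encodes an alpha subunit of the testis.

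The data came from 2 droplet libraries, 1 for each condition. The 4T1P library held GR1+ cells from tumors of the parental, anti-PD1 non-responsive 4T1 line, and the 4T1M library held GR1+ cells from tumors of a mutagenized, anti-PD1 responsive clone of that line. Both lines grew in BALB/c mice aged 6-8 weeks, with 5 mice pooled per library according to the series record, and GR1+ cells were taken by positive magnetic selection. The number of pooled mice and their age differ between sources, and the paper's methods give female mice. No treatment is given for these tumors in the labels. Each condition is 1 cell line and 1 pool of animals, so cell line, tumor, pool and library cannot be told apart, and no p-value is given between conditions.

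The proteasome is the barrel-shaped protease that degrades ubiquitin-tagged proteins. Its core consists of outer rings of alpha subunits and inner rings of beta subunits, of which only a few beta subunits cut peptides, and its regulatory cap contains ATPases that unfold the substrate and non-ATPase subunits that bind and remove ubiquitin. Other caps exist, among them the activator made by Psme1 and Psme2, which interferon induces together with the inducible beta subunits that replace the constitutive ones in the immunoproteasome. The peptides produced supply MHC class I.

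The 4T1P library held 2947 barcodes with 21855657 UMIs and the 4T1M library 5004 barcodes with 24303957 UMIs, of which 1726 and 3461 barcodes were retained, having 500 to 5000 genes detected and mitochondrial transcripts at 10% or less. Neutrophils (S100a8 and S100a9 at 1.5% of UMIs or more, with low C1q and Apoe) numbered 612 in 4T1P and 1686 in 4T1M, and macrophages (low S100a8 and S100a9, with C1q, Apoe, Csf1r, Cd68 and Fn1 at 0.3% or more) numbered 798 and 976. The remaining 316 and 799 retained cells were in neither class. Summed over 10 neutrophil markers that did not set the classes, levels were 18017 and 15117 UMIs per 1000000 UMIs of the class (CPM) in neutrophils against 337 and 478 CPM in macrophages. The 10 macrophage markers summed to 4765 and 3829 CPM in macrophages and to 902 and 1053 CPM in neutrophils. In the cells of neither class, the neutrophil markers summed to 1988 and 3407 CPM and the macrophage markers to 1383 and 1321 CPM. Whether neutrophils with low S100a8 and S100a9 are among those cells was not tested. Among genes of other cells, the 3 hemoglobin genes summed to 397 and 406 CPM in macrophages and to 4.00 and 149 CPM in neutrophils, the 5 tumor epithelial genes to 10.8 and 5.99 CPM and 70.3 and 12.9 CPM, and the 8 T and NK cell genes to 90.9 and 137 CPM and 49.9 and 46.5 CPM. The 4 B cell, 5 dendritic cell and 3 fibroblast genes summed to at most 14.8 CPM in either class. Of the T and NK cell genes, 3 and 1 were at 0 in macrophages and 4 and 3 in neutrophils. Most of their sum in macrophages was Il7r, at 87.8 and 133 CPM. In neutrophils most of it was Cd3d, at 29.2 and 22.5 CPM, and Il7r, at 19.98 and 22.6 CPM. Cd3d in macrophages and the remaining T and NK cell genes in both classes were at 2.5 CPM or less. The part of these genes of other cells in the results was not tested. The libraries shared 5 barcodes, 3 of them retained in both. The intervals given are 95% intervals of the counts and leave out any variation between animals.

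Proteasome transcripts took a larger part of the RNA in macrophages than in neutrophils. The 41 members held 0.163% of neutrophil UMIs in 4T1P (interval 0.158% to 0.168%) and 0.168% in 4T1M (0.165% to 0.171%), against 0.465% (0.461% to 0.470%) and 0.489% (0.484% to 0.493%) of macrophage UMIs. The share in macrophages was thus 2.86-fold that in neutrophils in 4T1P (interval 2.77 to 2.96) and 2.91-fold in 4T1M (2.85 to 2.97). The cells of neither class lay between, at 0.412% and 0.345%. A neutrophil held on average 6.65 and 6.56 member UMIs and a macrophage 51.1 and 46.8, at median depths of 3054.5 and 2957.5 UMIs for neutrophils and 9727 and 9213.5 UMIs for macrophages.

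Depth was then made equal by thinning each cell to 1000 UMIs, which left out 0 and 4 neutrophils and 26 and 37 macrophages as too shallow. Thinned neutrophils held a mean of 1.48 (4T1P) and 1.52 (4T1M) member UMIs and thinned macrophages 5.21 and 5.50. No member UMI was left in 25.5% and 26.4% of thinned neutrophils, compared with 1.81% and 1.38% of thinned macrophages. Before thinning these shares were 4.41% and 5.16% against 0.125% and 0.102%. The counts per cell formed 1 continuous range in each class. With so few member UMIs per cell, groups of cells at differing levels need not appear as separate.

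**Figure D1:**
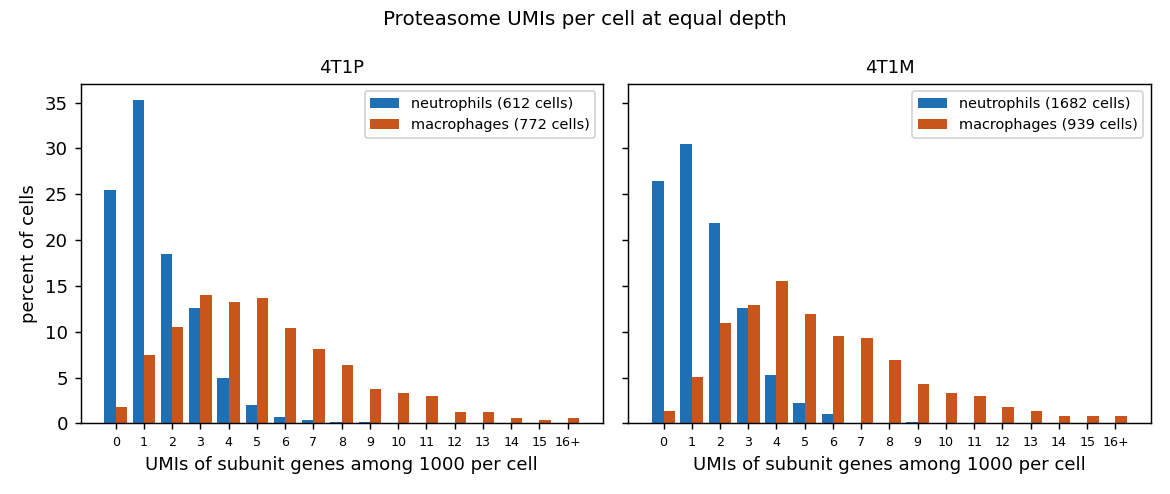
Percent of cells (vertical axis) by the number of UMIs from the 41 members among 1000 thinned UMIs per cell (horizontal axis), in 4T1P on the left and 4T1M on the right. Neutrophils lie at 0 to a few UMIs, with means of 1.48 and 1.52, and macrophages spread around means of 5.21 and 5.50.

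The difference in class was shared by most members. Among the 39 members with a mean of at least 10 CPM over both classes, 37 were at least 1.5-fold higher in macrophages in both libraries, where 52.6% of all 6661 genes at that level were, and 0 were at least 1.5-fold lower in both, against 16.3% of all genes. Psmd3, Psmd5 and Psme3 were under 10 CPM in neutrophils and entered the 39 only through their macrophage level. They are among the 37, and all genes were chosen by the same mean over both classes. For 29 of the 39 members the ratio was at least 2-fold in both libraries, a limit at which all genes were not counted. The median log2 ratio of macrophages over neutrophils was 1.48 over the members in 4T1P and 1.62 in 4T1M, against 0.87 and 0.77 over all genes. The exceptions below 1.5-fold in at least 1 library were Psmd10 and the copy gene Psme2b.

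The size of that ratio depended on the scaling. CPM divides by the class total, and the 10 most abundant genes took 31.6% and 30.4% of UMIs in neutrophils against 12.7% and 12.8% in macrophages. Scaling by edgeR's TMM factors shifted every log2 ratio by -0.93 in 4T1P and -0.89 in 4T1M, and DESeq2's size factors by -1.08 and -1.01. The count of members at least 1.5-fold higher was then 18 of 39 with TMM (all genes 31.1%) and 17 of 39 with DESeq2 (all genes 28.6%), and the member medians became 0.55 and 0.73 with TMM. With the 10 most abundant genes of each class left out of the totals, which removed 15 genes in 4T1P and 16 in 4T1M, members held 0.245% and 0.249% of neutrophil UMIs and 0.539% and 0.573% of macrophage UMIs, a ratio of 2.20 (interval 2.13 to 2.27) and 2.30 (2.25 to 2.35). Relative to the median of all genes, which no scaling alters, the members' median was 0.61 higher in 4T1P and 0.85 higher in 4T1M on the log2 scale. On that footing 33 of 39 members were above the all-gene median in both libraries, compared with 46.6% of all genes, and the other 6 were Psmc2, Psmc6, Psmd4, Psmd10, Psme4 and Psme2b.

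**Figure D2:**
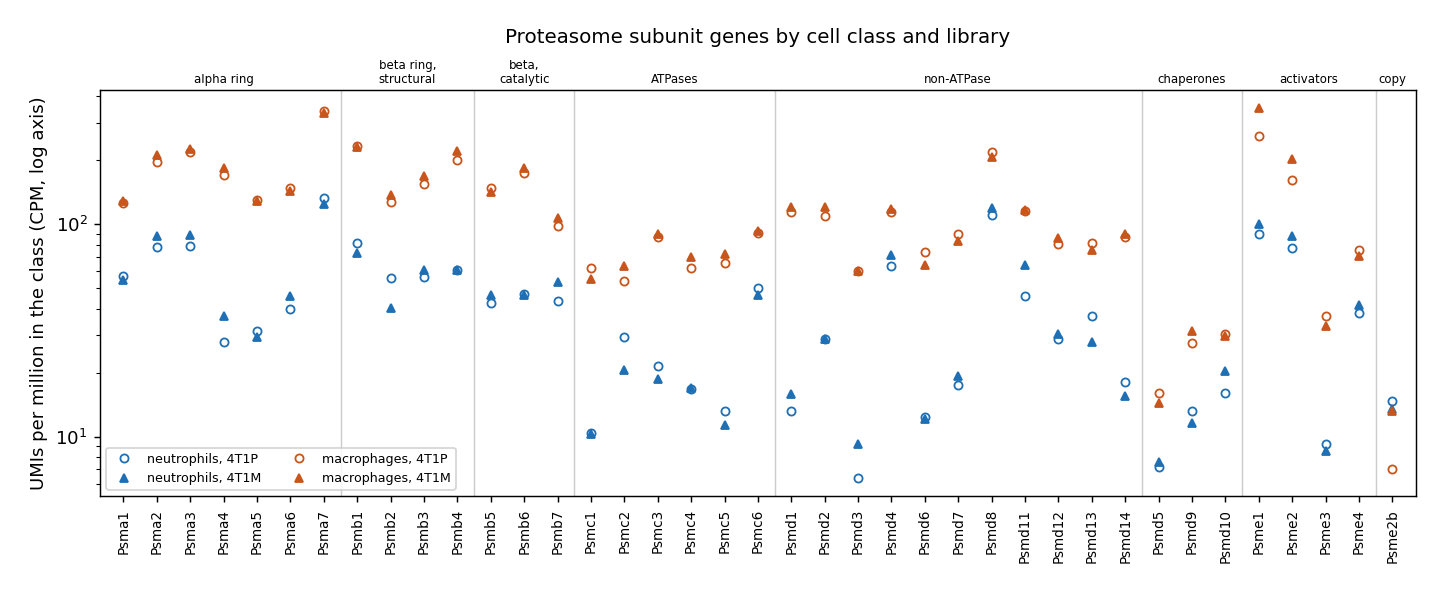
CPM (log axis) of 39 members in neutrophils (blue) and macrophages (orange) of 4T1P (open circles) and 4T1M (filled triangles), ordered by place in the particle, without Psma8 and Psmc3ip, which were under 10 CPM in both classes. The orange symbols lie above the blue ones for every gene plotted but Psme2b, and Psme1 reaches 352 CPM in 4T1M macrophages.

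The alpha ring, which forms the gate of the core, had 27.5% and 27.9% of all member UMIs in neutrophils and 28.6% and 27.8% in macrophages. Psma7, the most abundant alpha subunit gene, was at 133 CPM in 4T1P neutrophils, 125 CPM in 4T1M neutrophils, 341 CPM in 4T1P macrophages and 335 CPM in 4T1M macrophages. The other 6 alpha genes of somatic cells ran from 28.0 to 89.4 CPM in neutrophils and from 126 to 227 CPM in macrophages. Psma8 had 0 and 1 UMIs in neutrophils, where 3 UMIs would be 1.20 and 0.456 CPM, and 22 and 19 UMIs in macrophages. The 7 alpha genes had median log2 class ratios of 1.47 in 4T1P and 1.42 in 4T1M.

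The 4 structural genes of the beta ring, Psmb1 to Psmb4, summed to 255 and 235 CPM in neutrophils and to 715 and 759 CPM in macrophages. The 3 constitutive catalytic genes summed to 133 and 147 CPM in neutrophils and to 421 and 434 CPM in macrophages. Psmb5, of the chymotrypsin-like site, was at 42.4 and 46.5 CPM in neutrophils and 149 and 143 CPM in macrophages. Psmb6, of the caspase-like site, was at 46.7 and 46.7 CPM and at 174 and 184 CPM. Psmb7, of the trypsin-like site, was at 43.5 and 53.6 CPM and at 98.2 and 107 CPM. In neutrophils the counting intervals of the 3 genes overlapped within each library, whereas in macrophages they stood in the order Psmb6, Psmb5, Psmb7 in both libraries.

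The 6 ATPase genes of the cap, Psmc1 to Psmc6, were scarce in neutrophils, from 10.3 to 50.3 CPM, and ran from 54.3 to 92.7 CPM in macrophages. Their median class ratio was among the higher ones, at 1.93 and 2.14, and Psmc1 reached 2.56 and 2.41. The 11 non-ATPase genes of the cap had medians of 1.91 and 2.07. Psmd1, which encodes the largest scaffold subunit, was at 13.2 and 15.8 CPM in neutrophils and 115 and 121 CPM in macrophages, a log2 ratio of 3.10 (interval 2.62 to 3.67) and 2.93 (2.65 to 3.24). Psmd3, another scaffold subunit, was at 6.39 and 9.27 CPM against 60.0 and 60.0 CPM, a ratio of 3.19 (interval 2.52 to 4.05) and 2.68 (2.31 to 3.10). Its neutrophil levels rest on 16 and 61 UMIs. Psmd8, the most abundant of the Psmc and Psmd members, was at 111 and 119 CPM in neutrophils and 220 and 207 CPM in macrophages, only 0.98 and 0.79 apart. Psmd4, a receptor for ubiquitin chains, was at 63.5 and 71.4 CPM against 114 and 117 CPM, which is 0.83 and 0.72. By the mean of both libraries the 3 highest ratios were those of Psmd1, Psmd3 and Psmc1, although the alpha gene Psma4 was above Psmc1 in 4T1P, at 2.59, and Psmc5 and Psmd14 were above it in 4T1M, at 2.66 and 2.53. The summed class ratio of the non-ATPase genes was 2.99-fold and 2.76-fold, close to the 2.98-fold and 2.90-fold of the alpha ring.

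The 3 chaperone genes that help build the cap, Psmd5, Psmd9 and Psmd10, had the lowest group medians, at 1.05 and 0.92. Psmd10, also known as gankyrin, was at 15.98 and 20.4 CPM in neutrophils and 30.5 and 29.8 CPM in macrophages, a ratio of 0.92 and 0.54. Among the alternative caps, Psme3, a nuclear activator, was at 9.19 and 8.51 CPM in neutrophils and 37.0 and 33.3 CPM in macrophages. Psme4, which takes part in histone degradation, was at 38.4 and 41.8 CPM and at 75.5 and 71.1 CPM. Psme2b had 37 and 89 UMIs in neutrophils (14.8 and 13.5 CPM) and 62 and 123 in macrophages (7.07 and 13.2 CPM), and how the counting divided reads among it, Psme2 and the transcripts it lies in was not tested. Psmc3ip had 3 and 2 UMIs in neutrophils and 34 and 21 in macrophages.

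**Figure D3:**
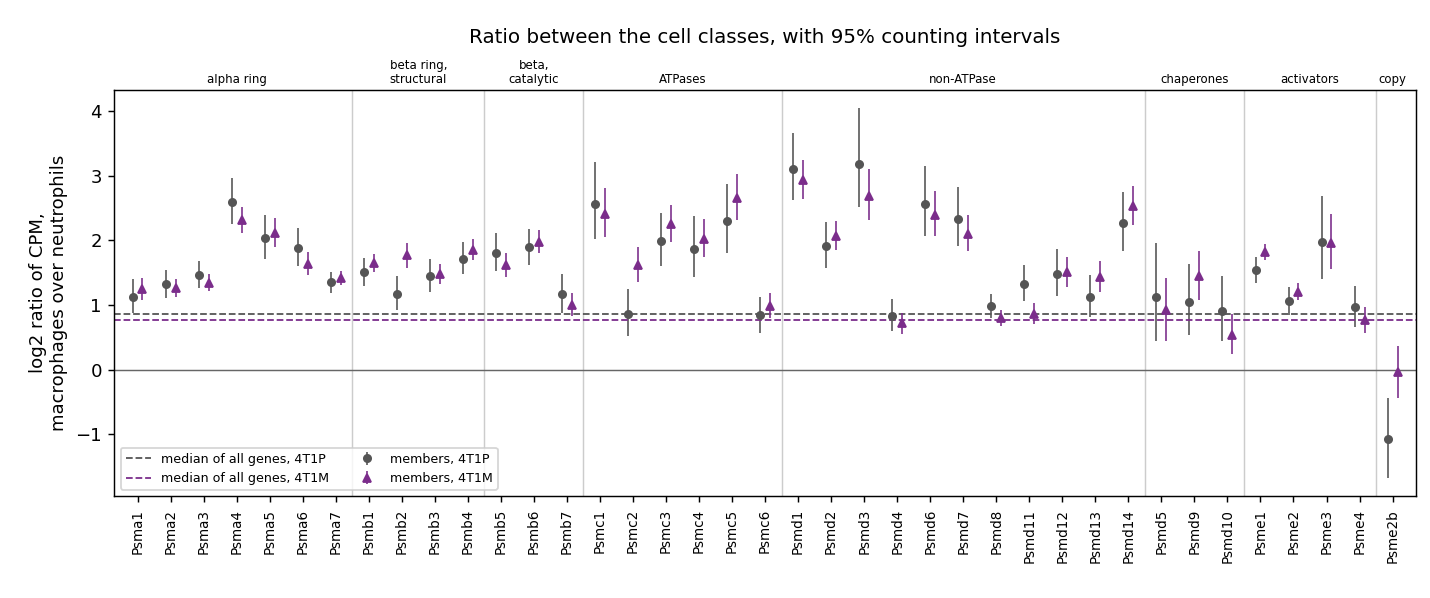
Log2 ratio of CPM in macrophages over neutrophils for 39 members (vertical axis, bars are 95% counting intervals) in 4T1P (grey circles) and 4T1M (purple triangles), with dashed lines at the medians of all 6661 genes, 0.87 and 0.77. Psmd1 and Psmd3 stand highest in both libraries and Psme2b lowest.

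The order of the genes by level was nearly the same in both libraries and less so between classes. Over the 41 members, Spearman's rho was 0.979 between the libraries in neutrophils and 0.993 in macrophages, and 0.872 and 0.880 between the classes of 4T1P and of 4T1M. These points are the same genes with the same annotation, and UMIs count molecules without regard to gene length.

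Nfe2l1, the factor that raises proteasome genes when the protease is blocked, and its relative Nfe2l2 bind the antioxidant response element, and promoters were searched for its letters TGACNNNGC on both strands. RefSeq promoters (GRCm38.p6, 250 bases before to 50 after the gene start) were at hand for 34 of the 41 members. The motif was in 6 of these (17.6%) and in 14.0% of the 27025 genes with a promoter, a gene counting if any of its promoters held it. The core of the interferon-stimulated response element, GAAANNGAAA on both strands, searched for after the data were seen, was in 4 of 34 (11.8%) and in 3.99% of all genes with a promoter. The sites in catalytic, activator and ubiquitin receptor genes described above are shown 5′ to 3′ along the gene's strand, with the motif or its reverse complement in capitals.
Psmb5, antioxidant element, chr14:54618024-54618052, minus strand: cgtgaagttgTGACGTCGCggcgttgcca
Psmb6, antioxidant element, chr11:70525338-70525366, plus strand: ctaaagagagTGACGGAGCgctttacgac
Psme4, antioxidant element, chr11:30771758-30771786, plus strand: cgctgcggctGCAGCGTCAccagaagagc
Psmd4, interferon element, chr3:95042675-95042704, minus strand: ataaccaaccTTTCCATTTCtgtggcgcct
Psme1, interferon element, chr14:55578493-55578522, plus strand: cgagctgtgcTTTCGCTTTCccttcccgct
Counted from the RefSeq gene start, the motif begins 47 bases before it in Psmb5, 9 bases before it in Psmb6 and at base 9 after it in Psme1, whose RefSeq start differs from that of the gene body in the annotation used for positions. The interferon element was also found in Psmb3 and Psmd9 and the antioxidant element in Psmc6, Psmd9 and Psmd12. A match is a description of letters in the window and not a bound site.

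Between the libraries, the members as a group were at like levels in neutrophils. In 36 members with at least 10 CPM, the median log2 ratio of 4T1M over 4T1P was 0.0042, with 18 above and 18 below 0, against 0.028 over all 5108 genes of that level. Members at least 25% higher in 4T1M numbered 3 (all genes 18.8%) and members at least 20% lower 3 (all genes 11.2%). The summed level of all members was 1.03-fold that in 4T1P (interval 0.998 to 1.07). In the direction of 4T1M, Psmd11, a scaffold of the cap, was at 45.9 CPM in 4T1P and 64.3 CPM in 4T1M, a log2 ratio of 0.48 (interval 0.18 to 0.79), and Psma4 and Psmd10 had ratios of 0.39 (0.012 to 0.81) and 0.34 (-0.17 to 0.90). In the other direction, Psmc2 was at 29.6 and 20.5 CPM, a ratio of -0.53 (interval -0.95 to -0.098), Psmb2 at 55.9 and 40.4 CPM, a ratio of -0.47 (-0.77 to -0.16), and Psmd13 at 37.2 and 27.8 CPM, a ratio of -0.42 (-0.79 to -0.042). Thinning each cell to 1000 UMIs left fewer counts per gene, and no intervals are given for the thinned values. The ratio of Psmd11 then became -0.060 and that of Psmb2 0.13, against the direction in unthinned cells. The cause was not tested.

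In macrophages the members lay closer together. The median ratio over 39 members was 0.046, with 25 above and 14 below 0, against -0.033 over all 7249 genes, and the sum was 1.05-fold (interval 1.04 to 1.06). The members at least 25% higher in 4T1M were 3 (all genes 7.88%), all of them activator genes or a copy, and 0 were at least 20% lower (all genes 10.1%). Psme1, the alpha subunit of the interferon-inducible activator, was at 262 CPM in 4T1P and 352 CPM in 4T1M, a ratio of 0.43 (interval 0.35 to 0.51). Psme2, its beta subunit, was at 161 and 204 CPM, a ratio of 0.34 (0.24 to 0.44). Psme2b had a ratio of 0.89 (0.44 to 1.36). The 7 alpha genes of somatic cells stayed between -0.044 and 0.11, the 4 structural beta genes between -0.015 and 0.14, and the 3 catalytic genes between -0.059 and 0.13. At the low end, Psmd6, Psmc1 and Psmd5 had ratios of -0.20 (-0.37 to -0.040), -0.18 (-0.35 to 0.00018) and -0.15 (-0.51 to 0.20).

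The difference in Psme1 and Psme2 was smaller under a mitochondrial limit of 5%, which left 460 and 612 macrophages of 798 and 976. Their ratios were then 0.31 and 0.13, both short of 25% higher. In neutrophils Psme1 was at 89.9 and 100 CPM and Psme2 at 77.1 and 88.1 CPM, with ratios of 0.15 (-0.067 to 0.38) and 0.19 (-0.044 to 0.44). Psme1 and Psme2 are neighbors on chromosome 14 of GRCm38 (chr14:55578123-55581529, plus strand, and chr14:55587441-55591113, minus strand, gene bodies). Psme3 and Psme4 had ratios of -0.15 (-0.38 to 0.078) and -0.087 (-0.24 to 0.070) in macrophages.

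**Figure D4:**
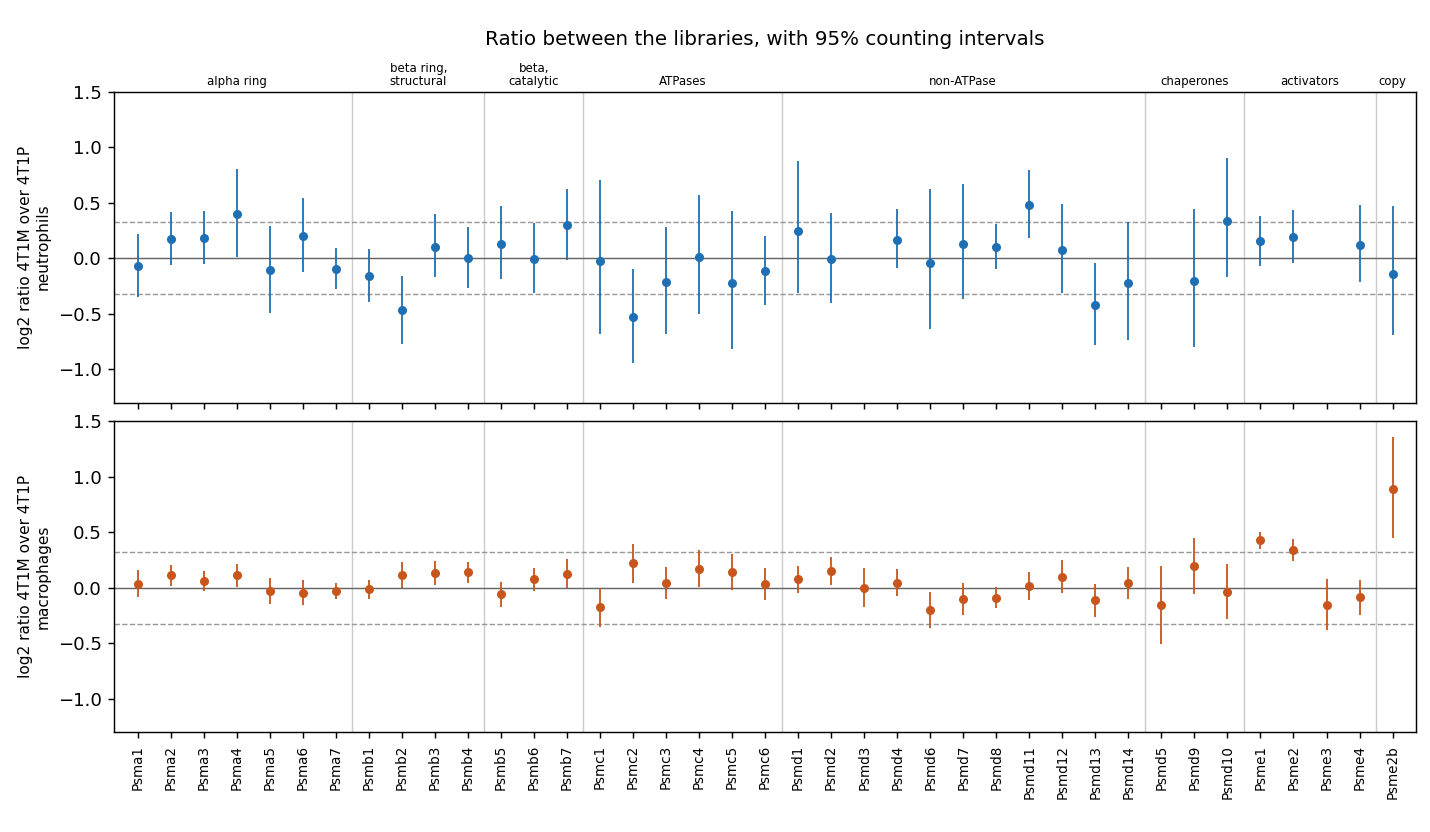
Log2 ratio of 4T1M over 4T1P in neutrophils (top, 36 members) and macrophages (bottom, 39 members), with 95% counting intervals and dashed lines at 25% higher and 20% lower. Most macrophage points lie near 0 with short bars, while Psme1, Psme2 and Psme2b stand above the upper line.

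The constitutive catalytic genes were set beside the inducible genes whose products replace them at the same place in the ring. Psmb9 was at 149 and 166 CPM in neutrophils and 139 and 221 CPM in macrophages, so that the UMI ratio of Psmb9 to Psmb6 was 3.18 (interval 2.58 to 3.95) and 3.56 (3.14 to 4.06) in neutrophils but 0.80 (0.742 to 0.863) and 1.20 (1.13 to 1.28) in macrophages. Psmb8 to Psmb5 was 3.18 (2.55 to 3.99) and 3.33 (2.93 to 3.8) in neutrophils and 2.18 (2.04 to 2.33) and 3.05 (2.87 to 3.25) in macrophages. For Psmb8 to Psmb5 the intervals of the classes overlapped in 4T1M but not in 4T1P. The 3rd pair was lower in neutrophils in both libraries. Psmb10 to Psmb7 was 0.477 (0.336 to 0.670) and 0.595 (0.499 to 0.708) in neutrophils and 1.31 (1.20 to 1.43) and 1.52 (1.40 to 1.64) in macrophages. Within a library these ratios do not depend on the scaling. In macrophages all 3 ratios were higher in 4T1M. For Psmb10 to Psmb7, however, the order of the libraries turned under the 5% mitochondrial limit (1.398 in 4T1P and 1.36 in 4T1M). It also turned in thinned cells (1.58 and 1.39), which hold fewer counts. The macrophage intervals did not overlap between libraries for Psmb9 to Psmb6 and for Psmb8 to Psmb5, whereas in neutrophils the intervals of the libraries overlapped for each pair.

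**Figure D5:**
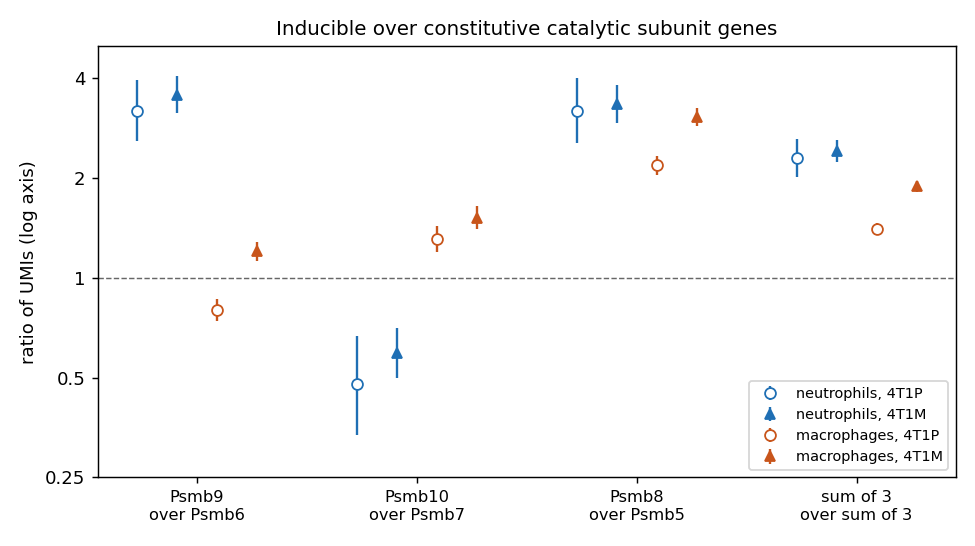
UMI ratio of inducible over constitutive catalytic gene (log axis, dashed line at 1, bars are 95% counting intervals) for 3 pairs and their sums, in neutrophils (blue) and macrophages (orange) of 4T1P (open) and 4T1M (filled). Neutrophils are higher for Psmb9 over Psmb6 and lower for Psmb10 over Psmb7.

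Cells were next divided by 7 interferon-stimulated genes that are no members (Isg15, Ifit1, Ifit2, Ifit3, Rsad2, Oasl1 and Usp18, together at 0.2% of UMIs or more). Such interferon-high cells made up 25.3% of neutrophils in 4T1P and 36.3% in 4T1M, and 12.7% and 32.2% of macrophages. S100a8 and S100a9, which set the neutrophil class, took 9.78% and 10.1% of UMIs in interferon-high neutrophils against 17.5% and 14.4% in the others. The neutrophil shares therefore hold only for cells that passed the S100 limit. In interferon-high neutrophils Psme1 was at 120 and 114 CPM against 82.0 and 92.4 CPM in the other neutrophils, and Psme2 at 103 and 110 CPM against 70.4 and 76.3 CPM. The immunoproteasome genes summed to 650 and 499 CPM against 214 and 276 CPM. The remaining members, without Psme1 and Psme2, were lower there, at 1204 and 1399 CPM against 1525 and 1543 CPM. Psmb5 was at 19.4 and 37.2 CPM in interferon-high neutrophils and 48.3 and 51.4 CPM in the others, log2 ratios of -1.25 (-2.42 to -0.37) and -0.46 (-0.84 to -0.10). Its interferon-high levels rest on 10 and 85 UMIs. The other constitutive catalytic genes did not all follow. Psmb6 had ratios of -0.30 (-1.10 to 0.38) and -0.49 (-0.88 to -0.13), and Psmb7 of 0.068 (-0.69 to 0.72) and 0.19 (-0.14 to 0.50). Of the members with at least 10 CPM, 25 of 35 in 4T1P (all genes 45.3%) and 25 of 36 in 4T1M (all genes 56.2%) were below 0, with medians of -0.30 and -0.20 against 0.068 and -0.052 over all genes.

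Interferon-high macrophages also had lower levels of most members, namely 34 of 38 below 0 in 4T1P (all genes 54.4%) and 34 of 39 in 4T1M (all genes 54.6%), with medians of -0.22 and -0.18 against -0.043 and -0.035 over all genes. These cells were deeper, at median 14312 and 12258 UMIs against 8565 and 6436. Among macrophages of at least 4000 UMIs the medians were -0.17 and -0.17. Psma7 was at 255 and 288 CPM in interferon-high and at 357 and 366 CPM in the other macrophages. Psme1 differed little across the split in macrophages, at 283 and 348 CPM against 257 and 354 CPM, log2 ratios of 0.14 (-0.023 to 0.29) and -0.024 (-0.13 to 0.077). Psme2 was at 155 and 189 CPM against 162 and 214 CPM, ratios of -0.059 (-0.28 to 0.15) and -0.17 (-0.31 to -0.039). The immunoproteasome genes summed to 686 and 835 CPM against 574 and 808 CPM. The difference of Psme1 between libraries was present on both sides of the split, with a ratio of 4T1M over 4T1P of 0.30 (interval 0.14 to 0.47) in interferon-high and 0.46 (0.37 to 0.55) in the other macrophages. For Psme2 these values were 0.28 (0.066 to 0.51) and 0.40 (0.28 to 0.52).

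Granule-rich neutrophils (Camp, Ltf and Ngp together at 1% of UMIs or more), a marker of immature cells, were few, with 18 cells in 4T1P and 46 in 4T1M. Their members summed to 2260 CPM (interval 2097 to 2432) and 2089 CPM (1981 to 2202), against 1534 and 1635 CPM in the other neutrophils, and 30 of 37 members in 4T1P (all genes 39.9%) and 26 of 36 in 4T1M (all genes 39.1%) were above 0. Psmb5 was at 94.97 and 82.8 CPM there and 34.8 and 42.4 CPM in the others. Psmb6 had log2 ratios of 0.54 (-0.26 to 1.22) and 0.77 (0.29 to 1.20), and Psmb7 of 0.18 (-0.75 to 0.94) and 0.24 (-0.28 to 0.70). The immunoproteasome genes had the opposite order, at 152 and 160 CPM against 326 and 375 CPM. Granule-rich cells were also the deepest, at median 16632 and 12576.5 UMIs against 2995.5 and 2920. Among neutrophils of at least 4000 UMIs the member sums were 2249 and 2088 CPM against 1587 and 1748 CPM. Depth still differed among these cells, at median 17599 and 12741 UMIs for granule-rich cells against 5623 and 5362.5, so it was not made equal.

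Cycling macrophages (8 cell cycle genes together at 0.1% of UMIs or more, 72 cells in 4T1P and 57 in 4T1M) had member sums of 6606 and 5951 CPM against 4571 and 4835 CPM in the other macrophages. In each library 38 of 39 members were above 0, where 55.2% and 61.4% of all genes were, with medians of 0.53 and 0.37 against 0.084 and 0.16 over all genes. Depth moved with this split, at median 2058 and 2923 UMIs for cycling cells against 11099.5 and 9484. In macrophages of at least 4000 UMIs, 24 and 25 cycling cells remained and the sums were 6145 and 5555 CPM against 4452 and 4725 CPM. The member medians were then 0.42 in 4T1P and 0.25 in 4T1M, against 0.11 and 0.17 over all genes, so in 4T1M they were close. Median depth still differed, at 7071 and 15805 UMIs for cycling cells against 15755 and 12799. Depth alone also separated macrophages, whose members summed to 7465 and 7405 CPM in cells under 2000 UMIs, 6510 and 6073 CPM at 2000 to 4000 UMIs and 4510 and 4762 CPM from 4000 UMIs. In neutrophils the corresponding sums were 1550 and 1429, 1480 and 1541, and 1739 and 1810 CPM.

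Of 40 other genes of the pathway, listed from their known roles, 39 had a feature. In macrophages 6 of them were at least 25% higher in 4T1M (all genes 7.88%) and 3 at least 20% lower (all genes 10.1%). The 6 were the immunoproteasome genes Psmb8 (324 and 435 CPM, ratio 0.43), Psmb9 (0.66) and Psmb10 (0.34) and the class I peptide loading genes Tap1 (73.8 and 138 CPM, 0.91), Tap2 (0.39) and Tapbp (0.48). Among the lower ones were the assembly chaperones Psmg2 and Psmg3, at -0.48 and -0.38. In neutrophils 2 of 27 were higher (all genes 18.8%), Psmb10 (0.61) and Tapbp (0.50), and 0 were lower (all genes 11.2%). Between classes 21 of 34 were at least 1.5-fold higher in macrophages in both libraries and 0 were lower, with median log2 ratios of 1.15 and 1.07, where 52.6% of all genes were higher and the all-gene medians were 0.87 and 0.77. Pomp, the chaperone that matures the core, had class ratios of 1.248 and 1.60, and Vcp, the ATPase that extracts ubiquitinated proteins, 3.03 and 2.90. Sem1, listed with the other cap or bound proteins, was more abundant than any Psmc or Psmd member. It was at 617 and 579 CPM in neutrophils and 726 and 707 CPM in macrophages, class ratios of 0.23 and 0.29. The factor gene Nfe2l1 was at 26.8 and 23.0 CPM in neutrophils and 51.7 and 42.8 CPM in macrophages, whereas its relative Nfe2l2 was at 219 and 257 CPM and at 183 and 199 CPM. The ubiquitin gene Ubb had class ratios of -0.55 and -0.44.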

How the data were processed

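GR1+ cells of 1 pooled 4T1P and 1 pooled 4T1M sample were profiled with the 10x Genomics system. The authors aligned the reads to mm10 (GRCm38) with Cell Ranger, version 4.0.0 in the submitters' processing notes and a later version in the methods, and deposited UMI counts for each gene in each barcode, as raw values. Genes at equal or overlapping sequence may lose or share counts in this step. Library totals of 21855657 and 24303957 UMIs set the precision.

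Barcodes with 500 to 5000 genes and at most 10% mitochondrial UMIs were retained, and no doublets were removed. Cells within reach of the class limits (S100a8 and S100a9 between 1% and 2%) numbered 70 and 269, and cells that met the S100 limit with high C1q and Apoe, left in neither class, 11 and 53. Counts were summed by class and library, with CPM as UMIs per 1000000 of that sum. Log2 ratios used 0.5 added UMIs and exact conditional binomial intervals, levels exact Poisson intervals and shares of cells exact binomial intervals (Python 3.11.15, scipy 1.17.1). With 1 library per condition, calls are levels 25% higher or 20% lower between libraries and 1.5-fold apart between classes, among genes of at least 10 CPM on average. TMM (edgeR 4.0.16) and DESeq2 1.42.0 factors served for scaling only. Scripts were tested on simulated data.

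The members and gene lists were chosen with earlier results of these data known. Genes named with values are the catalytic subunits and their inducible counterparts, Psme1 to Psme4, the 3 most abundant members, the 3 highest and 3 lowest of each ratio, and those under the UMI minimum. Positions are from GENCODE and RefSeq on GRCm38. Some listed genes of the pathway enter the counts but are not reported here by name.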

Additional observations from a re-analysis of the deposited data

Results flagged for a closer look

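Psmb2 and Psmc2 had ratios of 4T1M over 4T1P of opposite sign in neutrophils and macrophages, each with a counting interval that left out 0. Psmb2 was at -0.47 in neutrophils and 0.12 in macrophages, and Psmc2 at -0.53 and 0.22. With 1 library per condition the difference between the classes was not tested, and the opposite signs depended on the setting. When every cell was thinned to 1000 UMIs, Psmb2 was at 0.13 in neutrophils and -0.095 in macrophages. Psmc2 was then negative in both, at -0.68 and -0.26. The thinned values rest on fewer counts and are given without intervals.

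The barcodes left out by the gene and mitochondrial limits, which enter no comparison, also carried proteasome UMIs. The members held 0.479% of their UMIs in 4T1P (1221 barcodes) and 0.406% in 4T1M (1543 barcodes).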

How the results depend on the processing

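The ratio between the libraries had a member median of 0.0042 in neutrophils and 0.046 in macrophages. In macrophages it was 0.075 with TMM factors, 0.080 with DESeq2 size factors, 0.083 with stricter class gates and, with its sign turned, -0.011 without an upper limit on detected genes. The all-gene median of macrophages, -0.033 in the main setting, was -0.0037, 0.00053, -0.034 and -0.075 in the same order of settings. The members' median was thus above that of all genes in each. In neutrophils the member median was 0.13 over members of at least 50 CPM (all genes 0.026) and 0.081 under the 5% mitochondrial limit (all genes 0.049). Members at least 25% higher in 4T1M were 3 in each class. In neutrophils they were 1 at 50 CPM, 6 in thinned cells and 7 in cells of at least 4000 UMIs. In macrophages they were 1 under the 5% limit and 5 in thinned cells. All genes were not counted under these other settings, so the member counts there cannot be set against a share.

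The class medians (1.48 in 4T1P and 1.62 in 4T1M) were 0.55 and 0.73 with TMM, 0.41 and 0.61 with DESeq2, 1.59 and 1.68 under the 5% limit, 1.58 and 1.67 without the upper gene limit, 1.59 and 1.72 with stricter gates, 1.95 and 2.05 in thinned cells, 1.63 and 1.83 without the 5% of cells with most UMIs and 1.29 and 1.39 in cells of at least 4000 UMIs. At 50 CPM the median was 1.56 in 4T1M. Members at least 1.5-fold higher in macrophages were 18 with TMM (all genes 31.1%) and 17 with DESeq2 (all genes 28.6%), against 37 (all genes 52.6%). They were 28 of the members left at 50 CPM, where all genes were not counted.

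Psmb9 over Psmb6 was 0.730 and 1.02 in macrophages under the 5% limit, 0.870 and 1.32 with stricter gates, and in neutrophils 4.00 and 4.6 in thinned cells, 3.99 and 4.30 without the deepest cells and, in 4T1M, 2.96 from 4000 UMIs. Psmb10 over Psmb7 in macrophages was 1.398 in 4T1P and 1.36 in 4T1M under the 5% limit, and 1.58 and 1.39 in thinned cells, both with the order of the libraries turned. It was 1.68 in 4T1M macrophages with stricter gates and 0.810 in 4T1P neutrophils when thinned. Psmb8 over Psmb5 was 2.85 in 4T1M macrophages under the 5% limit, 4.27 in 4T1M neutrophils and 2.44 and 3.36 in macrophages when thinned, and 4.01 and 4.02 in neutrophils without the deepest cells. The order of the classes in Psmb9 over Psmb6 and Psmb10 over Psmb7 was the same in all of these. Thinned cells hold fewer counts, and no intervals are given for the ratios under these settings. The cause of the shifts was not tested, apart from the scaling factors themselves.

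Among single-gene values at least 25% higher or 20% lower in 4T1M, 2 changed sign, both in thinned neutrophils (Psmd11 -0.060, Psmb2 0.13). Of the other single-gene values, 32 moved by more than the margin of their counting interval, some with a change of sign (Psmc2 -0.26 and Psmb2 -0.095 in thinned macrophages), and 362 moved by less. Leaving out the deepest cells, the shared barcodes and the cells under 4000 UMIs was chosen after the data were seen, as was the search for the interferon element. Pair ratios within a library have no scaling alternative, and the 50 CPM and no-filter settings do not alter them. No replicate could be left out, and no paired analysis was possible because each condition has 1 library. Counting error limits neutrophil ratios of single genes, whose intervals span up to a log2 unit or more.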
